A study of Homo sapiens with 54 samples.

Results

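ABCA1 and 5 further genes of liver X receptor (LXR) biology were followed across every group of an RNA sequencing study of Compound Kushen Injection (CKI), a plant extract mixture used alongside cancer treatment. The members were the cholesterol transporters ABCA1 and ABCG1, the receptor genes NR1H2 and NR1H3, their dimer partner RXRA and the ubiquitin ligase gene MYLIP. All 6 were found by symbol among the 27978 genes of the count table, and all 6 passed the filter on low counts in each of the 4 model fits. They were chosen by their log2 ratios to untreated cells of the same time and batch. Those ratios, and the differences between treated groups that follow from them, are given below as a description. Where calls or adjusted p-values of the members are given for them, no conclusion is drawn from these.

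The cells were MDA-MB-231, an established triple-negative breast cancer line, and each of 18 groups held 3 biological replicates. At 24 h and at 48 h of batch 1 the groups were untreated cells (UT), CKI at 2 mg/ml and 4 mixtures made from CKI fractions at a dose equivalent to 2 mg/ml. OO held only oxymatrine (Omt) and oxysophocarpine (Ospc), and MOO held macrozamin (Mac) with Omt and Ospc. N-OmtOspc was CKI from which Omt and Ospc had been removed, and N-MacOmtOspc was CKI from which Mac, Omt and Ospc had been removed. A second batch at 48 h held untreated cells, CKI and 4 mixtures that each lacked 1 compound, which was Mac (N-Mac), N-methylcytisine (N-Nme), Omt (N-Omt) or trifolirhizin (N-Tri). The mixtures had been taken apart and put together again while CKI had not, so removal of a compound and the reconstitution cannot be told apart in a comparison with CKI. All values come from 1 cell line, and batch 2 shared only its untreated and CKI groups with batch 1.

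LXRs are nuclear receptors that bind oxidised forms of cholesterol. NR1H3 encodes LXR alpha and NR1H2 encodes LXR beta, and each binds DNA as a dimer with a retinoid X receptor such as the product of RXRA. When cholesterol is plentiful the dimer raises transcription of ABCA1, which hands cholesterol and phospholipid to lipid-poor apolipoprotein A-I, and of ABCG1, which passes cholesterol to particles that already carry lipid. The same dimer raises MYLIP (also called IDOL), whose product marks lipoprotein receptors such as VLDLR and LRP8 for degradation, so that efflux goes up while uptake goes down.

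The promoter of ABCA1 shows the kind of element through which this works and is given here because ABCA1 had the lowest log2 ratio to untreated cells of the members under CKI. The 250 bases before its RefSeq start are on the minus strand of GRCh38.p14 at chr9:104928156-104928405. Capitals mark the best match to the LXR element, called DR4, and an E-box upstream of it.
ABCA1: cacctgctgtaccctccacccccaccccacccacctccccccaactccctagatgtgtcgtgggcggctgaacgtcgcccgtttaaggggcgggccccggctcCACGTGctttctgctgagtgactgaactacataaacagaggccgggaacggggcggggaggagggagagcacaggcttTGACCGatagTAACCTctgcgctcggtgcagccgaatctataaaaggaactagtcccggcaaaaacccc

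DR4 was searched as AGGTCA, any 4 bases and AGGTCA again on either strand, and the best match in each promoter was scored over its 12 fixed letters. The ABCA1 match lay on the opposite strand to the gene, 69 bases upstream at its far end, and held 10 of the 12 letters. A match at least as good was present in 2.34% of the 35116 promoters in the RefSeq table. The E-box, CACGTG, lay 147 bases upstream and was present in 7.26% of promoters. Of the other members, an entry was found for RXRA, NR1H3, MYLIP and NR1H2. Read on the strand of the match, with the matched hexamers in capitals, the best sites of ABCA1, RXRA and MYLIP are set side by side to show how far they differ.
ABCA1: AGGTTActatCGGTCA
RXRA: AGCTCCtgctGGGTCA
MYLIP: CGGCCAgggaAACTCA

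The RXRA site, the better of its entries, held 9 of 12 letters, a score reached by 18.6% of promoters. The other RXRA entry held 7 of 12 at best, a score reached by 99.7%. The MYLIP site held 8 of 12, a score reached by 72.5%. These matches describe the sequence and nothing was measured of binding to them.

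The libraries held between 17673537 and 26138924 counts. Markers of the line were abundant in every library, VIM from 488 to 1565 CPM (counts scaled to a common library total) and CD44 from 328 to 669 CPM, while ESR1 did not exceed 0.333 CPM and PGR 0.0922 CPM. ERBB2 and EPCAM, also listed as low or absent in this line, were present at 32.2 to 113 CPM and at 6.19 to 27.6 CPM. The 5 macrophage markers summed to between 3.08 and 33.8 CPM, with PTPRC, CD163 and ITGAM at 0 in at least 1 library and CD14 reaching 28.9 CPM. The 5 fibroblast markers summed to between 14.3 and 94.8 CPM, COL1A1 giving up to 65.2 CPM and DCN falling to 0 in at least 1 library. Their part in the results was not tested. In 3 libraries of 24 h expression leaned towards batch 2 on 527 genes that differed at least 2-fold between the untreated cells of the batches. The lean was 0.669 in CKI replicate 1, 0.613 in N-MacOmtOspc replicate 2 and 0.576 in OO replicate 2, where 1 equals the whole batch difference, against -0.41 to 0.11 in the other 33 libraries of batch 1. Each library was set against the other replicates of its group, so a leaning library lowers the values of those. In the groups of batch 1 without a leaning library the range was -0.13 to 0.11. Where a member's value in the text moved by over 1.5 times or changed call without the 3 leaning libraries, both values are mostly given. Within N-OmtOspc at 24 h, replicate 3 stood apart from replicates 1 and 2. The chi-square per degree of freedom between their counts was 84.9 and 131, and 11.2 between replicates 1 and 2. The value of 131 was the highest of 54 replicate pairs. In N-MacOmtOspc at 24 h, replicate 2 gave 108 against replicate 1 and 87.1 against replicate 3. Without replicate 3 N-OmtOspc at 24 h averaged 55.7 CPM for ABCG1 and 292 CPM for RXRA. The library size factors (TMM) of that group, 0.775, 0.777 and 0.842, were the lowest of the series.

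ABCA1 was 10.1-fold lower with CKI than in untreated cells at 24 h, 6.92-fold lower at 48 h in batch 1 and 8.94-fold lower at 48 h in batch 2. It lay above the CKI level with every mixture. The untreated libraries of 24 h read 55.1, 61.8 and 65.2 CPM, and the CKI libraries 5.58, 6.03 and 6.38 CPM. At 48 h in batch 1 the untreated libraries read 75.6, 69.4 and 67.4 CPM against 10.6, 8.27 and 11.8 CPM with CKI. In batch 2 the untreated libraries read 77.4, 77.0 and 77.9 CPM against 9.04, 9.00 and 7.88 CPM with CKI. The groups did not overlap in any of the 3 sets, and the 3 CKI groups were the lowest of all 18. Among all genes tested 52.4%, 63.2% and 69.7% also had groups that did not overlap in these sets. The log2 ratios of CKI to untreated were -3.34 ± 0.20 (SE), -2.79 ± 0.12 and -3.16 ± 0.073, n = 3 against 3 in each.

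**Figure D1:**
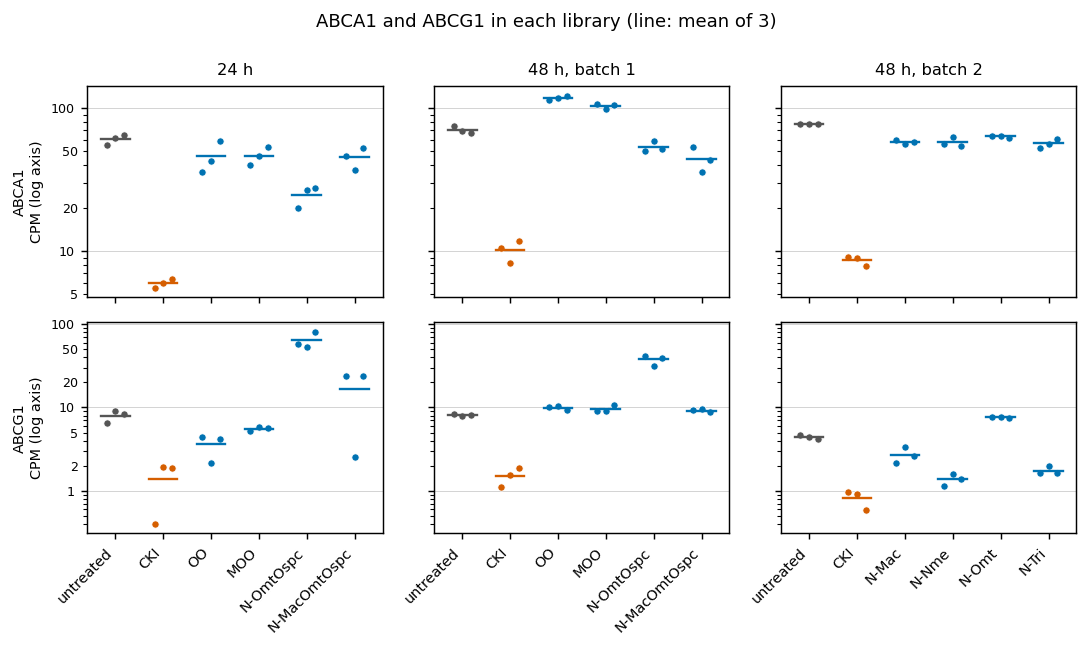
CPM of ABCA1 (upper row) and ABCG1 (lower row) on log axes in each of 54 libraries, by time and batch, with 1 point per library and a line at the mean of 3. ABCA1 sits at 5.58 to 11.8 CPM in the 9 CKI libraries and at 20.2 CPM or more in all others, while ABCG1 is highest with N-OmtOspc at both times.

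Among the mixtures, ABCA1 was lowest with N-OmtOspc at 24 h, where the libraries read 20.2, 26.8 and 27.6 CPM. These lay under every untreated library and above every CKI library, with a log2 ratio to untreated of -1.26 ± 0.18. At 48 h the same mixture read 50.4, 58.5 and 51.4 CPM, a log2 ratio of -0.40 ± 0.11. N-MacOmtOspc read 46.0, 37.2 and 52.5 CPM at 24 h and 53.7, 35.9 and 43.5 CPM at 48 h. Its libraries lay under the untreated ones at both times.

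With the purified compounds the position of ABCA1 differed between the times. OO read 36.1, 43.0 and 59.4 CPM at 24 h, overlapping the untreated libraries, and 114, 118 and 122 CPM at 48 h, above all of them. MOO read 40.0, 46.2 and 53.5 CPM at 24 h, under the untreated libraries, and 108, 99.4 and 105 CPM at 48 h, above them. OO and MOO at 48 h were the highest groups of the series for ABCA1. In batch 2 the mixtures lacking 1 compound all lay between CKI and untreated cells, from 52.8 CPM in an N-Tri library to 64.3 CPM in an N-Omt library. In the order of the 18 means, 10 of 17 neighbours had overlapping libraries, among them all neighbours from N-MacOmtOspc at 48 h, at 44.4 ± 8.9 CPM, up to N-Omt at 63.5 ± 1.4 CPM.

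ABCG1, the partner transporter, was also lower with CKI, by 5.69-fold at 24 h, 5.36-fold at 48 h in batch 1 and 5.31-fold at 48 h in batch 2, but it was far above untreated cells with N-OmtOspc. Its level was low, so its ratios under CKI rest on few counts. At 24 h the untreated libraries read 6.51, 9.04 and 8.25 CPM and the CKI libraries 0.405, 1.91 and 1.89 CPM. The lowest CKI library, from 9 counts, was replicate 1, which also leaned towards batch 2. At 48 h the untreated libraries read 8.28, 7.96 and 8.07 CPM in batch 1 and 4.66, 4.42 and 4.16 CPM in batch 2. The CKI libraries read 1.10, 1.53 and 1.87 CPM in batch 1 and 0.978, 0.926 and 0.590 CPM in batch 2. CKI and untreated libraries did not overlap in any set.

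With N-OmtOspc, ABCG1 read 57.7, 53.7 and 80.6 CPM at 24 h and 41.9, 31.6 and 39.5 CPM at 48 h. Every one of these libraries lay above all others of the series, at 8.17-fold and 4.64-fold the untreated level. N-MacOmtOspc read 24.0, 2.58 and 23.9 CPM at 24 h, so that 2 libraries lay above untreated cells and replicate 2, which leaned towards batch 2, lay below. Its log2 ratio to untreated was 1.09 ± 0.53 with that library and 1.59 ± 0.16 without the 3 libraries. At 48 h it read 9.23, 9.46 and 8.71 CPM, a log2 ratio of 0.17 ± 0.12.

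In batch 2, N-Omt was the mixture with the highest ABCG1, at 7.79, 7.71 and 7.53 CPM, above every untreated library. N-Mac read 2.14, 3.35 and 2.59 CPM, N-Nme 1.15, 1.57 and 1.40 CPM, and N-Tri 1.62, 2.00 and 1.64 CPM. These lay under every untreated library and above every CKI library. In each batch the mixture with the highest ABCG1 lacked Omt. N-MacOmtOspc lacks it too and averaged 16.8 CPM at 24 h, with replicate 2 at 2.58 CPM, against 3.61 with OO and 5.54 with MOO. At 48 h it averaged 9.14 CPM against 9.90 and 9.62 CPM, and its libraries overlapped those of OO and MOO. Whether the lack of Omt bears on ABCG1 was not tested.

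**Figure D2:**
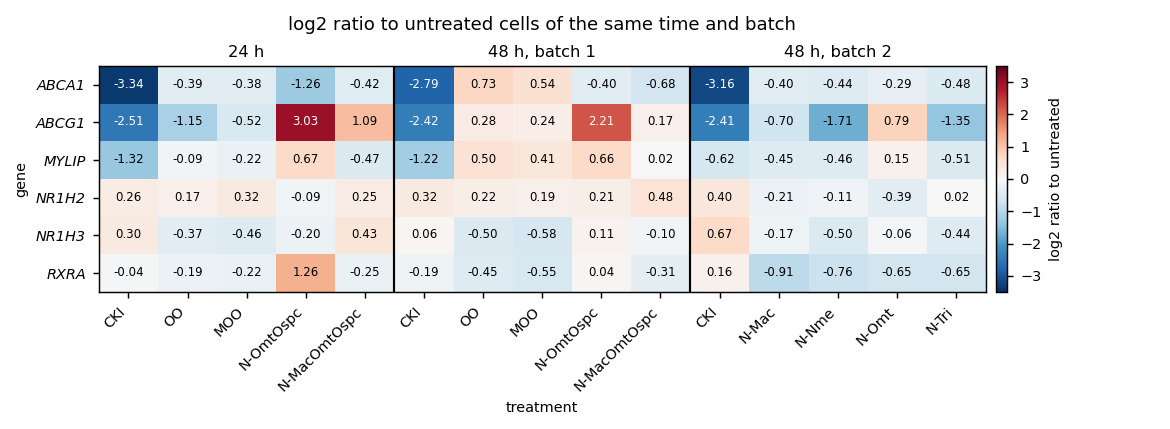
log2 ratio of each of 15 treated groups to the untreated cells of the same time and batch, for the 6 members, with the fitted value in each cell, blue for lower and red for higher. ABCA1 and ABCG1 are both blue under CKI (-3.34 to -2.41) and part under N-OmtOspc, where ABCG1 reads 3.03 and 2.21 and ABCA1 -1.26 and -0.40.

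MYLIP was lower with CKI in all 3 sets and higher with N-OmtOspc in both. At 24 h the untreated libraries read 19.6, 19.6 and 19.1 CPM, the CKI libraries 10.9, 5.73 and 6.60 CPM and the N-OmtOspc libraries 30.3, 30.7 and 30.3 CPM. At 48 h in batch 1 the untreated libraries read 21.8, 23.8 and 21.7 CPM, the CKI libraries 10.1, 8.74 and 9.98 CPM and the N-OmtOspc libraries 36.7, 31.8 and 37.7 CPM. None of these groups overlapped within a set. The log2 ratio of CKI to untreated was -1.32 ± 0.20 and -1.22 ± 0.094 in batch 1 but -0.62 ± 0.073 in batch 2, where CKI read 17.8, 17.3 and 18.0 CPM against 27.0, 30.3 and 24.3 CPM. As for ABCG1, N-Omt stood above the other mixtures of batch 2, at 30.5, 30.9 and 29.6 CPM against 18.5 to 21.4 CPM.

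The receptor genes differed less. NR1H2, which encodes LXR beta, ranged from 82.2 ± 2.8 CPM with N-Omt to 195 ± 41 CPM with N-MacOmtOspc at 48 h. The highest mean rested on replicate 2 of that mixture, at 242 CPM beside 167 and 177 CPM. Without it the mean was 172 CPM, under that of CKI at 48 h in batch 1, at 174 CPM. With CKI it read 137, 170 and 181 CPM at 24 h against 140, 137 and 133 CPM untreated, and these overlapped. At 48 h CKI read 184, 174 and 164 CPM against 126, 141 and 150 CPM in batch 1, and 143, 141 and 140 CPM against 106, 104 and 112 CPM in batch 2. The 48 h groups did not overlap, and CKI was the higher in both. CPM are not scaled by transcript length, so levels of different genes are not compared.

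NR1H3, which encodes LXR alpha, read 29.7, 22.2 and 24.3 CPM with CKI at 24 h against 20.8, 20.4 and 20.7 CPM untreated, with no overlap. At 48 h CKI read 24.7, 23.3 and 23.7 CPM against 22.2, 22.5 and 24.1 CPM in batch 1, which overlapped. In batch 2 CKI read 34.8, 33.9 and 33.0 CPM against 22.0, 23.2 and 19.0 CPM, with no overlap. The log2 ratios were 0.30 ± 0.19, 0.060 ± 0.11 and 0.67 ± 0.072, and that of 24 h was 0.17 ± 0.18 without the 3 libraries that leaned towards batch 2, among them the highest CKI library. With OO and MOO NR1H3 was under untreated cells at both times, with log2 ratios between -0.58 and -0.37.

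RXRA, the shared dimer partner, was above all other groups with N-OmtOspc at 24 h, at 289, 294 and 250 CPM against 118, 112 and 125 CPM untreated. At 48 h that mixture read 164, 134 and 149 CPM against 139, 145 and 150 CPM, and the groups overlapped. CKI stayed within 0.19 of untreated cells on the log2 scale in the 3 sets. The 4 mixtures lacking 1 compound were the lowest groups of the series for RXRA, at 50.7 to 67.0 CPM against 96.6 to 107 CPM in untreated cells of batch 2.

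**Figure D3:**
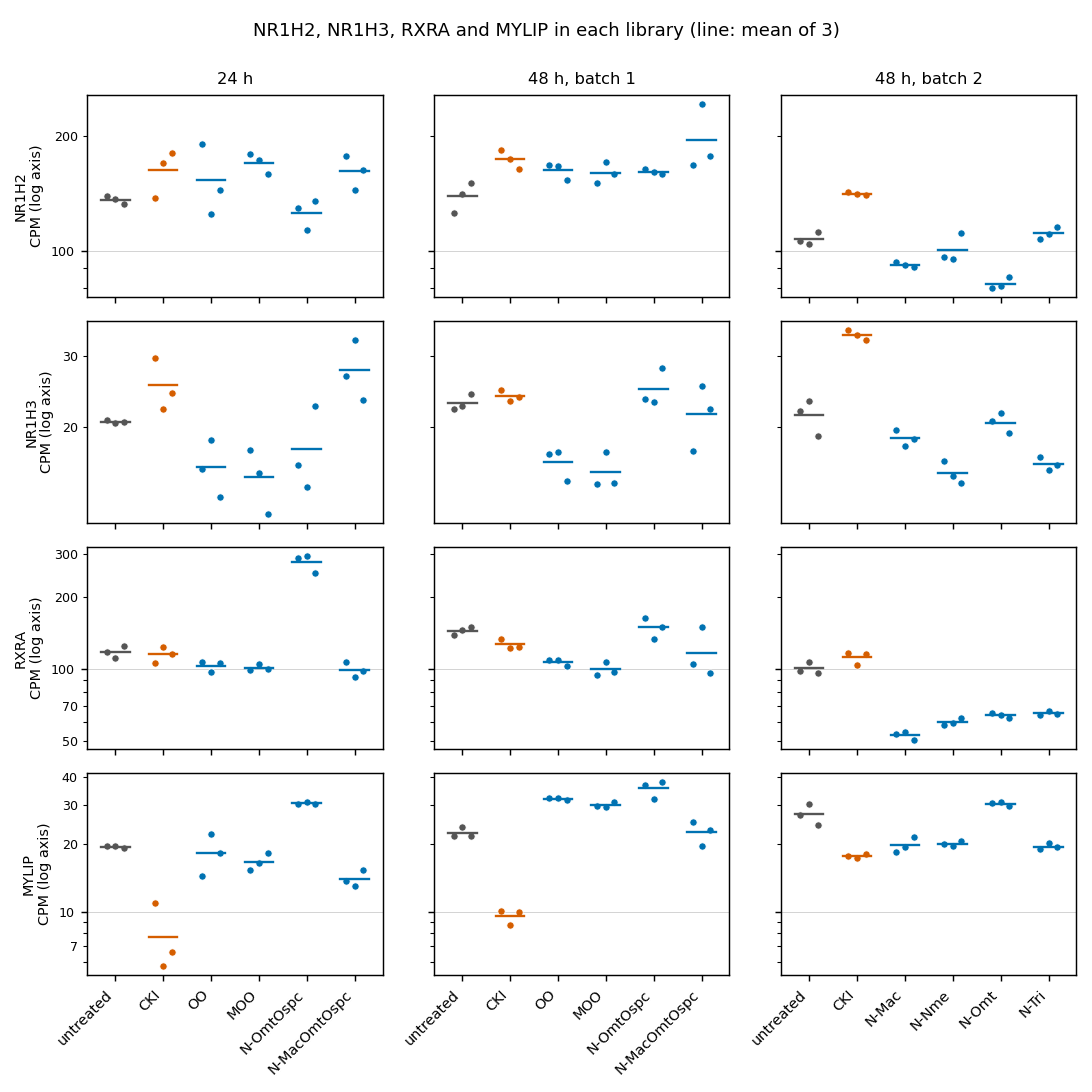
CPM of NR1H2, NR1H3, RXRA and MYLIP on log axes in each of 54 libraries, by time and batch, with 1 point per library and a line at the mean of 3. RXRA peaks at 250 to 294 CPM with N-OmtOspc at 24 h, and MYLIP is lowest with CKI in each set.

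With CKI against untreated cells 3 members passed an adjusted p of 0.05 at 24 h, where 30% of all genes tested did. Without the 3 libraries that leaned towards batch 2 NR1H2 passed too, which made 4. At 48 h it was 4 members in batch 1, where 54% of all genes did, and all 6 in batch 2, where 66.4% did. The log2 ratios in these contrasts chose the members, so nothing is read from the counts.

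The mixtures were then compared with CKI itself, which asks whether a mixture that lacks compounds leaves these genes where CKI does. The CKI and mixture libraries both enter the ratios that chose the members, so the differences are given for all 6 with their SEs or 95% confidence intervals and no p. ABCA1 was higher than with CKI in all 12 comparisons, by 2.07 (interval 1.66 to 2.48) on the log2 scale for N-OmtOspc at 24 h up to 3.52 (3.26 to 3.78) for OO at 48 h. For the mixtures lacking 1 compound the difference was 2.76 for N-Mac, 2.72 for N-Nme, 2.87 for N-Omt and 2.68 for N-Tri, with SEs of 0.074 to 0.075. These 12 comparisons share their CKI libraries within a set.

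Over the 24 tests of 6 members in 4 mixtures, 15 passed at 24 h, where 28.6% of all gene tests did, with 11 higher and 4 lower than CKI. In batch 1 at 48 h 15 of 24 passed against 59.9% of all gene tests, with 12 higher and 3 lower. In batch 2 at 48 h 22 of 24 passed against 72.2%, with 10 higher and 12 lower. Without the 3 libraries the count at 24 h was 16. Since these libraries chose the members, nothing is read from the counts.

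ABCG1 was higher than with CKI by 5.54 ± 0.65 on the log2 scale with N-OmtOspc at 24 h and by 4.64 ± 0.14 at 48 h. In the mixtures lacking 1 compound the difference ran from 0.70 ± 0.25 with N-Nme to 3.20 ± 0.18 with N-Omt. At 24 h the difference was 1.36 ± 0.65 with OO and 1.99 ± 0.63 with MOO, which were not called, and 1.18 ± 0.24 and 1.54 ± 0.22, which were, without the 3 libraries that leaned towards batch 2. Fitted folds against CKI at these few counts depend on the prior count of the model.

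MYLIP was higher than with CKI for all 8 mixtures of batch 1, by 0.85 ± 0.20 with N-MacOmtOspc at 24 h to 1.99 ± 0.20 with N-OmtOspc at 24 h. Without the 3 libraries these ends were 1.24 ± 0.14 and 2.33 ± 0.13. In batch 2 N-Omt was higher by 0.77 ± 0.073. N-Mac differed from CKI by 0.17 (interval 0.016 to 0.33), N-Nme by 0.16 (0.0066 to 0.32) and N-Tri by 0.11 (-0.050 to 0.26).

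The receptors went the other way in batch 2. All 4 mixtures lacking 1 compound were lower than CKI in NR1H2 by 0.38 to 0.79, in NR1H3 by 0.73 to 1.16 and in RXRA by 0.81 to 1.07 on the log2 scale. In batch 1 NR1H3 was lower than with CKI in OO and MOO, by 0.68 and 0.76 at 24 h and by 0.56 and 0.64 at 48 h, with SEs of 0.11 to 0.19. RXRA was higher than with CKI for N-OmtOspc, by 1.29 ± 0.10 at 24 h and 0.23 ± 0.11 at 48 h, and read lower in the other 10 comparisons. NR1H3 with N-OmtOspc at 24 h differed from CKI by -0.50 ± 0.19, which was called, and by -0.37 ± 0.18, which was not, without the 3 libraries.

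**Figure D4:**
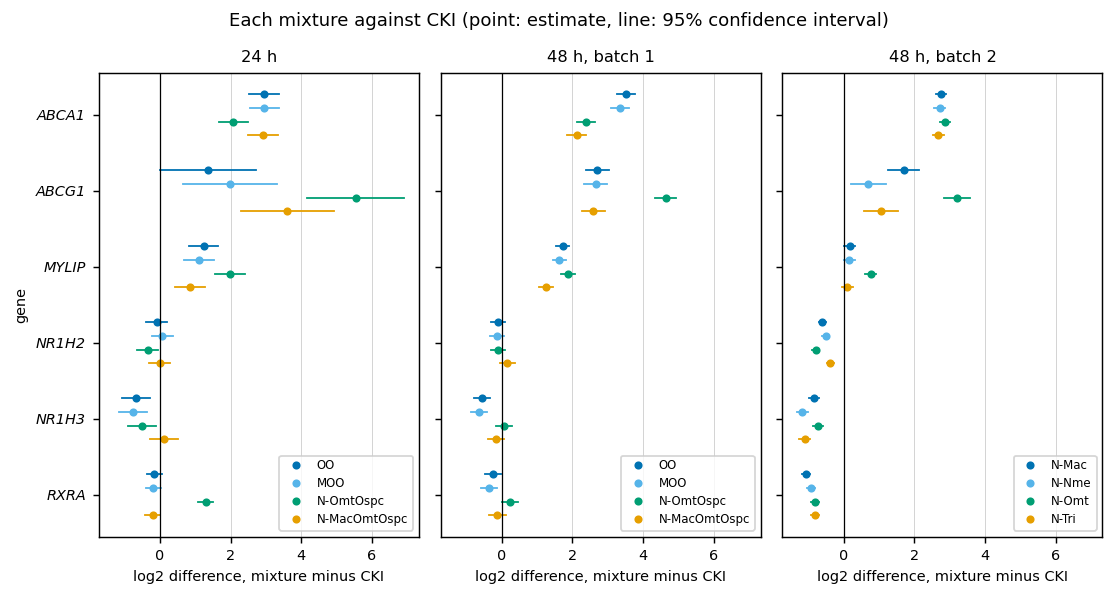
log2 difference of each mixture from CKI for the 6 members at 24 h, at 48 h in batch 1 and at 48 h in batch 2, as the fitted estimate (point) with its 95% confidence interval (line). All 12 ABCA1 points lie between 2.07 and 3.52, while in batch 2 the NR1H2, NR1H3 and RXRA points all lie under 0.

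The pairs of mixtures with and without Mac use neither untreated nor CKI libraries. The ratios of these mixtures to untreated cells were still among those that chose the members. Calls and adjusted p-values of these pairs are thus a description, and nothing is read from their counts. Of 24 member tests 10 passed, 3 higher and 7 lower in the mixture without Mac, where 25.2% of all gene tests did, and 11 passed without the 3 libraries that leaned towards batch 2. All 10 were in N-MacOmtOspc against N-OmtOspc, where 47.6% of genes passed at 24 h and 51% at 48 h, and 0 of 12 passed in MOO against OO by edgeR, with 0 at an unadjusted p under 0.05 and 0 by DESeq2. Over all genes, 0% of 15191 passed at 24 h by edgeR and 0 by DESeq2, with 566 at an unadjusted p under 0.05, and 1.98% passed at 48 h. For ABCA1 the interval of MOO minus OO was -0.36 to 0.39 at 24 h and -0.40 to 0.034 at 48 h, and for ABCG1 it was -0.58 to 1.82 and -0.29 to 0.21.

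ABCG1 and MYLIP were lower with N-MacOmtOspc than with N-OmtOspc at both times, and RXRA was lower at 24 h. Both were reconstituted mixtures, and whether the lack of Mac itself made the difference was not tested. ABCG1 was lower by 1.94 ± 0.52 at 24 h (adjusted p = 0.00568) and by 2.05 ± 0.11 at 48 h (adjusted p = 1.3e-11) on the log2 scale. Without the 3 libraries the 24 h difference was -1.43 ± 0.16 (adjusted p = 7.5e-06), and with only the compared groups in the fit it was -1.91 (adjusted p = 0.0513). MYLIP was lower by 1.14 ± 0.19 and 0.64 ± 0.087, with adjusted p = 0.00015 and 2.63e-06. RXRA was lower by 1.50 ± 0.10 at 24 h (adjusted p = 2.83e-08). ABCA1 was higher by 0.85 ± 0.18 at 24 h (adjusted p = 0.00109).

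The other differences between N-MacOmtOspc and N-OmtOspc gained or lost their call when single libraries were left out. At 48 h the RXRA difference was -0.35 ± 0.11 (adjusted p = 0.0109). It read -0.57 without N-MacOmtOspc replicate 2 and lost its call without N-MacOmtOspc replicate 1 (-0.28) or 3 (-0.22), without N-OmtOspc replicate 1 (-0.28) and with only the compared groups in the fit, with adjusted p up to 0.0894. ABCA1 at 48 h differed by -0.27 ± 0.11 (adjusted p = 0.0462), a call lost under 17 of 26 alternatives (adjusted p up to 0.203). That difference was -0.14 without N-MacOmtOspc replicate 2 and -0.43 without replicate 1. NR1H2 at 48 h differed by 0.27 ± 0.10 (adjusted p = 0.0297), a call lost under 6 of 26 alternatives. Without N-MacOmtOspc replicate 2, the library at 242 CPM, the NR1H2 difference was 0.090 (adjusted p = 0.29), and leaving out any 1 N-OmtOspc library gave 0.26 to 0.28 and no call. At 24 h NR1H2 differed by 0.34 ± 0.14 (adjusted p = 0.0546), and by 0.42 ± 0.11 without the 3 libraries that leaned towards batch 2 (adjusted p = 0.00677). NR1H3 at 24 h differed by 0.63 ± 0.19 (adjusted p = 0.012), and the call was lost without N-OmtOspc replicate 1 (0.57) or 2 (0.50) or N-MacOmtOspc replicate 2 (0.49), with adjusted p up to 0.0638.

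The 4 mixtures lacking 1 compound were also compared with each other, in 6 pairs chosen after the ABCG1 levels had been seen. Their ratios to untreated cells also entered the choice of the members. All values, calls and adjusted p-values of these pairs are therefore a description. Of 36 member tests 21 passed, where 44.9% of all gene tests did. ABCG1 in N-Omt was above N-Mac by 1.50 ± 0.15, above N-Nme by 2.50 ± 0.16 and above N-Tri by 2.14 ± 0.16 on the log2 scale. MYLIP in N-Omt was higher than in N-Mac, N-Nme and N-Tri by 0.60 ± 0.072, 0.61 ± 0.072 and 0.66 ± 0.072, with adjusted p between 3.14e-09 and 2.19e-08. ABCA1 differed between these mixtures by no more than 0.19, and passed for N-Omt against N-Tri (adjusted p = 0.00639) and N-Nme (adjusted p = 0.0267). The first of these ABCA1 calls was lost under 2 of 26 alternatives, among them leaving out N-Tri replicate 1 (0.15, adjusted p = 0.0571). The second was lost under 6, with -0.090 for N-Nme minus N-Omt without N-Nme replicate 3, and adjusted p of 0.0618 to 0.0798 without N-Nme replicate 1 or N-Omt replicate 1 or 2. NR1H2 was lower in N-Omt than in the other 3 mixtures, by 0.18 to 0.41, with adjusted p of 0.00354 or less, and with all 54 libraries in 1 fit the difference from N-Mac did not pass (adjusted p = 0.256).

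Untreated cells show how far the members move without treatment. The untreated libraries enter the ratios that chose the members, so calls and adjusted p-values here are a description. Of 12 member tests over time and batch 4 passed, where 33.6% of all gene tests did, and nothing is read from the count. RXRA was higher at 48 h than at 24 h by 0.29 ± 0.069 (adjusted p = 0.0104), and by 0.25 without untreated replicate 2 of 24 h (adjusted p = 0.0624). In batch 2 RXRA was lower than in batch 1 by 0.55 ± 0.070, NR1H2 by 0.40 ± 0.083 and ABCG1 by 0.90 ± 0.24, with adjusted p = 1.01e-05, 0.000778 and 0.00475. ABCA1 differed by 0.22 between the times (interval 0.025 to 0.41, adjusted p = 0.116) and by 0.10 between the batches (-0.088 to 0.29, adjusted p = 0.359). The untreated and CKI libraries share 1 estimate of the spread in this fit, and without CKI replicate 1 of 24 h 6 of 12 passed, with ABCA1 over time (adjusted p = 0.0373) and MYLIP between the batches (0.26, adjusted p = 0.00712) added.

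The log2 ratio of CKI to untreated chose the members, so its differences between times and batches are a description with no p. Of 12 such member differences 3 were called, where 4.62% of all gene tests were, and 5 without CKI replicate 1 of 24 h, and nothing is read from these counts. For ABCA1 the ratio was smaller in size at 48 h than at 24 h, by 0.56 ± 0.15, a call lost under 11 of 26 alternatives. In batch 2 it was higher than in batch 1 by 0.63 ± 0.13 for NR1H3, a call lost under 1 of 26 alternatives, and by 0.36 ± 0.098 for RXRA, a call lost under 13 of 26. For MYLIP the batch difference was 0.62 ± 0.21, and 0.62 ± 0.12 without CKI replicate 1 of 24 h. Its time difference was 0.11 ± 0.22 with that library and 0.46 ± 0.14 without it, and in the same edgeR fit both MYLIP differences were called without it and not with it. The time difference of NR1H3 went from -0.23 ± 0.13 to -0.085 ± 0.11 and that of ABCG1 from 0.10 ± 0.41 to -0.33 ± 0.27. Between the batches ABCG1 differed by 0.032 (interval -1.03 to 1.09).

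Across the 15 treated groups the log2 ratios of ABCG1 and MYLIP had a Pearson r of 0.84 and a Spearman rho of 0.843. ABCA1 and ABCG1 had r = 0.534, and ABCA1 and NR1H3 had r = -0.708. The groups share 3 sets of untreated libraries, so the values are a description. The 5 genes most like ABCA1 by Pearson r, out of 9780 tested in every set with a mean of at least 10 CPM, were CEBPG (0.952), TTC28 (0.928), SNHG8 (0.925), U2AF1L4 (0.924) and DTX3 (0.922). For CEBPG, a basic leucine zipper factor, rho was 0.604. Its log2 ratio lay at -0.77 to -0.21 with CKI and at 0.66 to 1.64 with the mixtures, so that, as in ABCA1, the 3 CKI groups stood apart.

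The other genes of the pathway were taken from 7 lists of 83 genes, of which 71 or 72 were tested. The lists were chosen with earlier results of these data known. Most genes named from them have the largest ratios of CKI to untreated in their list. Their calls and adjusted p-values are therefore a description. With CKI, 32 of 71 passed at 24 h, 19 higher and 13 lower, where 15.3% of all genes tested were higher and 14.8% lower. At 48 h in batch 1 47 of 72 passed, 28 higher and 19 lower, where 27% of all genes were higher and 27% lower. In batch 2 52 of 71 passed, 34 higher and 18 lower, where 32.3% and 34.2% were. The count at 24 h was 20 without untreated replicate 1, 19 without untreated replicate 2 and 21 without CKI replicate 1. It was 35 without the 3 libraries that leaned towards batch 2, CKI replicate 1 among them.

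Among the 16 further LXR targets, 8 of 13 tested passed at 24 h, with 2 higher and 6 lower. At 48 h 12 of 14 passed in batch 1, with 3 higher and 9 lower, and 10 of 13 in batch 2, with 3 higher and 7 lower. The median log2 ratio of the list was -0.41, -0.53 and -0.29, beside 0.020, 0.0080 and -0.0073 over all genes. In the 3 sets 30%, 54% and 66.4% of all genes passed, in either direction, and the lists that follow are read beside these shares. SREBF1, the factor that drives fatty acid synthesis, went from 562 ± 29 to 105 ± 32 CPM at 24 h, from 685 ± 81 to 219 ± 19 CPM at 48 h in batch 1 and from 342 ± 5.6 to 121 ± 6.7 CPM in batch 2. Its log2 ratios were -2.42, -1.64 and -1.50, all past the test. APOC1, an apolipoprotein, had log2 ratios of -1.25, -1.45 and -1.55, and LPL, a lipase of lipoproteins, -1.43, -1.01 and -0.82 at under 2 CPM, all past the test. MERTK, a receptor for the uptake of dying cells, rose by 1.21, 0.84 and 0.62.

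Against untreated cells the mixtures of 24 h called 62.1% of all genes with N-OmtOspc, 45% with N-MacOmtOspc, 16.7% with OO and 10.5% with MOO, and those of 48 h in batch 1 called 76.6%, 71.1%, 57.8% and 51.2%. In batch 2 the shares were 72.4% with N-Mac, 71.3% with N-Nme, 78.2% with N-Omt and 72.2% with N-Tri. SREBF1 was under untreated cells with every mixture too, with log2 ratios from -2.33 with N-Mac to -0.28 with MOO at 24 h, and passed in 13 of the 15 groups, the exceptions being OO and MOO at 24 h. Unlike ABCA1, it was not lowest with CKI in batch 2. There it read 121 ± 6.7 CPM with CKI and 67.3 ± 2.5 to 101 ± 2.6 CPM with the mixtures, all of which were above CKI in ABCA1.

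APOE, which encodes a lipid-carrying apolipoprotein, was, like ABCG1, highest of its set with N-OmtOspc in batch 1 and with N-Omt in batch 2. It went from 4.15 ± 0.18 to 30.5 ± 18 CPM with N-OmtOspc at 24 h (log2 ratio 2.90 ± 0.46, adjusted p = 3.9e-05) and from 6.41 ± 0.95 to 28.3 ± 0.65 CPM at 48 h (2.15 ± 0.17, adjusted p = 9.1e-11). With N-MacOmtOspc it rose by 1.79 and 0.87, and with N-Omt by 1.06 ± 0.15 (adjusted p = 1.5e-07). With CKI it was lower in batch 1 at 48 h, by 0.80 ± 0.20 (adjusted p = 0.0018), and did not pass in the other sets, at -0.41 and -0.29.

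**Figure D5:**
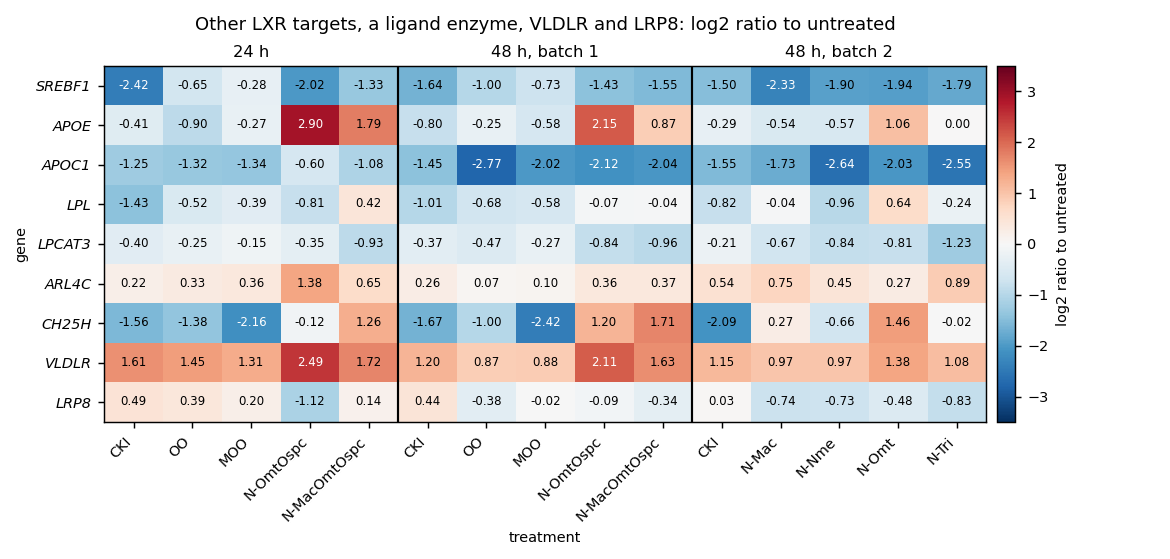
log2 ratio of each of 15 treated groups to the untreated cells of the same time and batch for 9 genes of the LXR pathway that are not among the 6 members, with the fitted value in each cell, blue for lower and red for higher. SREBF1 is blue and VLDLR red in all 15 columns, while APOE and CH25H change colour between mixtures.

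Of the enzymes that make or use LXR ligands, 5 of 6 tested passed with CKI at 24 h and at 48 h in batch 1, each time with 2 higher and 3 lower, and 6 of 6 in batch 2, with 3 each way. CH25H, which makes 25-hydroxycholesterol, fell from levels of 0.86 to 1.58 CPM, with log2 ratios of -1.56 ± 0.44, -1.67 ± 0.56 and -2.09 ± 0.27. With N-Omt it rose by 1.46 ± 0.17 and with N-MacOmtOspc by 1.26 and 1.71. With CKI CYP27A1, which makes 27-hydroxycholesterol, fell by 0.61, 0.63 and 0.57, and CYP39A1, an oxysterol hydroxylase, rose by 1.00, 0.89 and 1.02.

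Among RXR genes and its other partners, 6 of 13 tested passed with CKI at 24 h, all higher, 9 at 48 h in batch 1 (7 higher) and 12 in batch 2 (10 higher). PPARA, a fatty acid sensor, rose by 1.34, 1.01 and 1.35. RARB, a retinoic acid receptor, read 1.28 at 24 h without passing and rose by 1.78 and 1.38 at 48 h. NR4A1, an orphan receptor, rose by 1.13, 0.86 and 0.46, and NR1I3 read 0.83 at 24 h without passing and rose by 0.73 and 1.19 at 48 h. With N-OmtOspc at 24 h, the group with the RXRA peak, 10 of the 13 were higher and 2 lower, where 31.1% and 30.9% of all genes were, and the median was 1.39 beside -0.0055 over all genes. Of the 10 coregulators 1, 3 and 6 passed with CKI, or 10%, 30% and 60%, under the share of all genes in each set. NCOA3, a coactivator, rose by 0.87, 0.38 and 0.64.

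VLDLR and LRP8, receptors whose protein MYLIP marks for degradation, did not share 1 pattern. VLDLR rose in all 15 groups, from 17.6 ± 0.37 to 53.6 ± 3.1 CPM with CKI at 24 h and to 97.3 ± 12 CPM with N-OmtOspc, with log2 ratios from 0.87 to 2.49. LRP8 rose with CKI at 48 h in batch 1 by 0.44 ± 0.081 and fell with all 4 mixtures lacking 1 compound, by 0.48 to 0.83.

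Relatives of the transporters did not follow ABCA1 under CKI. Of 9 further ABCA and ABCG genes tested 2, 3 and 4 passed, all of them higher. These are 22.2%, 33.3% and 44.4%, where 30%, 54% and 66.4% of all genes passed. ABCA7 rose by 0.57, 0.90 and 1.07, ABCA3, a lipid transporter of lung surfactant, by 0.55, 0.75 and 0.80, and ABCG2, a drug efflux pump, by 1.22 and 1.90 at 48 h, with 0.28 at 24 h that did not pass. ABCG4 read 0.12 and 0.25 without passing and rose by 0.94 in batch 2. Of the 12 genes of cholesterol traffic within the cell 5, 9 and 7 passed, or 41.7%, 75% and 58.3%, of which the last is under the share of all genes. CAV1, the coat protein of caveolae, fell by 1.31, 1.48 and 1.73 and GRAMD1B, a sterol carrier at membrane contacts, by 1.46 and 0.91 in batch 1. In batch 2 the log2 ratio of GRAMD1B was -0.12. STARD3, a sterol carrier of late endosomes, rose by 0.44, 0.48 and 0.47.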

How the data were processed

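Total RNA of MDA-MB-231 cells was sequenced as paired reads from poly(A) libraries. The authors deposited raw counts per gene, not normalized. The submitters' processing notes name FastQC 0.11.4, Trim Galore 0.3.7, STAR 2.5.3a, Subread 1.5.2, featureCounts, edgeR 3.22.3 and the build hg19. Promoters came from RefSeq on GRCh38.p14, which was used for sequence only.

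Counts were analysed with edgeR 4.0.16 in R 4.3.3. Low genes were dropped by filterByExpr and library sizes adjusted by TMM before a fit with 1 mean per group (glmQLFit, glmQLFTest). There were 4 fits of 18 libraries, which were 24 h, 48 h batch 1, 48 h batch 2, and all untreated and CKI libraries. Adjusted p-values are Benjamini-Hochberg over all genes tested and two-sided, with calls under 0.05. SE is the log2 difference over the root of F. Levels are CPM scaled by TMM over all 54 libraries, and mean ± SD is over n = 3. The script was tested on simulated data. Library totals set the precision of low genes such as ABCG1.

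The members and gene lists were chosen with earlier results of these data known. The genes named are the 6 members, VLDLR, LRP8, APOE and SREBF1, up to 4 genes per list with the largest mean log2 ratio of CKI to untreated over the 3 sets, and the 5 genes most like ABCA1, apart from some genes of this rule that are not reported here. The 6 pairs of mixtures lacking 1 compound were added after levels were seen. Other size factors, no filter, DESeq2 1.42.0, a replicate block, other sets of libraries, a fold limit and leaving out each library were tried as alternatives.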

Additional observations from a re-analysis of the deposited data

Results flagged for a closer look

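Differences between times or batches in the same contrast stood out as follows. In the edgeR fit of untreated and CKI libraries, the log2 ratio of CKI to untreated was 0.56 higher at 48 h than at 24 h for ABCA1, 0.63 higher in batch 2 than in batch 1 for NR1H3 and 0.36 higher for RXRA, each under the threshold of the fit. These ratios chose the members, so the differences are a description. The call was lost under 11 of 26 alternatives for ABCA1, 1 of 26 for NR1H3 and 13 of 26 for RXRA.

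The following differences were not tested. Every treated library lay on one side of the untreated mean in the first set and on the opposite side in the other. Treated and untreated libraries overlapped for ABCA1 with OO at 24 h, NR1H2 with N-OmtOspc at 24 h and RXRA with CKI in batch 2. With OO, ABCA1 went from a log2 ratio of -0.39 at 24 h to 0.73 at 48 h, a difference of 1.12, and ABCG1 from -1.15 to 0.28, a difference of 1.42. With MOO, ABCA1 went from -0.38 to 0.54, a difference of 0.93, ABCG1 from -0.52 to 0.24, a difference of 0.76, and MYLIP from -0.22 to 0.41, a difference of 0.63. Without the 3 libraries that leaned towards batch 2, the ABCG1 ratio at 24 h was -0.88 ± 0.19 with OO and -0.53 ± 0.16 with MOO. Both of these ABCG1 ratios were called without those libraries and not with them. With N-OmtOspc, NR1H2 went from -0.091 to 0.21, a difference of 0.30. With CKI, RXRA went from -0.19 in batch 1 to 0.16 in batch 2, a difference of 0.35.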

How the results depend on the processing

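The count of members whose CKI effect differed by time or batch, 3 as reported, became 1 with no filter beyond 1 count, 1 with a replicate block (each time NR1H3 between the batches, with ABCA1 and RXRA lost), 5 without the 3 libraries that leaned towards batch 2, and 0 with all 54 libraries in 1 edgeR fit, where 4 tests had an unadjusted p under 0.05 and DESeq2 on the reported fits called 4. The cause was not tested beyond the change of samples and genes. With an absolute log2 difference of at least 1 required as well, that count was 0 and the count in untreated cells 0, both also at an unadjusted p and with DESeq2. That limit also left 11 pathway genes at 24 h, 9 at 48 h in batch 1 and 13 in batch 2, 4 member calls with and without Mac and 10 for the mixtures of batch 2 against CKI. Replicates share numbers, but not every pair of same-numbered libraries correlated above 0.1 in any of the fits (17, 8, 5 and 4 of 45 pairs did), so the numbers were not taken as pairs; the replicate block moved no other count by over 1.5 times.

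Leaving out each library in turn gave an ABCA1 ratio of CKI to untreated of -3.40 to -3.28 at 24 h, -2.92 to -2.66 at 48 h in batch 1 and -3.20 to -3.10 in batch 2. Members called against CKI ranged from 12 to 17, 15 to 19 and 20 to 23, with and without Mac from 8 to 11, in untreated cells from 3 to 6 and for the CKI effect from 1 to 5. Pathway genes called ranged from 19 to 36, 44 to 53 and 47 to 52. The pathway count at 24 h fell by over 1.5 times without untreated replicate 1 (20), untreated replicate 2 (19) or CKI replicate 1 (21). With all 3 libraries that leaned towards batch 2 left out together it was 35. For the CKI effect, 5 members passed without CKI replicate 1 of 24 h, and 1 passed without any of untreated replicate 2 of 24 h, untreated replicates 2 and 3 of 48 h batch 1 or CKI replicate 3 of 48 h batch 1, each left out alone. With only the compared groups in the fit, and without CKI replicate 1 of 24 h, 6 members passed in untreated cells. No result that passed changed direction under any alternative run. Low counts limit ABCG1 with CKI.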

Other observations

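The genes whose log2 ratios were most like those of ABCG1 over the 15 treated groups were looked up after the ABCG1 values had been seen. They were NF2, a tumour suppressor of the Hippo pathway, with a Pearson r of 0.946 and a Spearman rho of 0.95, NAT8L (0.943 and 0.893), PDRG1 (0.936 and 0.9), ZCCHC3 (0.931 and 0.871) and ANKRD10 (0.925 and 0.929). None of these 5 was among the 5 genes most like ABCA1. The groups share untreated libraries, and no test was made.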
